A study of Saccharomyces cerevisiae with 16 samples.

Results

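The transcriptome of wild type (WT) Saccharomyces cerevisiae in exponential growth was described from 4 libraries of total RNA, out of 16 libraries in 4 genotypes in the series. The members were chosen by genotype alone, as the libraries of the WT cultures, and all 12670 transcripts counted in them were used. The cells were isogenic to BY4741, a haploid MATa laboratory strain in which the marker genes HIS3, LEU2, MET17 (also called MET15) and URA3 are disrupted or deleted. Cultures were started from single colonies on different days, grown in YPD, a rich medium with glucose, and harvested at an OD600 of 0.8, an optical density at which cells are still dividing. Ribosomal RNA was depleted, and the libraries were strand-specific, so that sense and antisense RNA of a gene were counted apart. No RNA from another strain was compared here, and the 4 cultures are biological replicates of 1 condition.

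In glucose-grown budding yeast, cells ferment glucose to ethanol even when oxygen is present, and genes for respiration, for other sugars and for gluconeogenesis are repressed. Fast growth calls for many ribosomes, and mRNAs for glycolytic enzymes and ribosomal proteins are known to dominate the mRNA pool. RNA polymerase II also makes many noncoding RNAs. Cryptic unstable transcripts (CUTs) and Nrd1-unterminated transcripts (NUTs) are short-lived in cells with a working nuclear exosome, stable unannotated transcripts (SUTs) last longer, and antisense transcripts (ASTs) run opposite to open reading frames. Small nuclear and nucleolar RNAs (sn/snoRNAs) guide splicing and the maturation of ribosomal RNA. The study also annotated regions past their 3′ ends as extended transcripts. The sn/snoRNA class was not divided here into mature RNAs and such regions. Protein-coding transcripts are called open reading frame transcripts (ORF-Ts). Ssu72-restricted transcripts (SRTs) are named for the termination factor Ssu72. The class label MAN also occurs in the table, and its meaning is not given in the sources used here.

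The openings of the strongest and weakest mRNAs are shown as examples of codon use. Most amino acids have several codons. Capitals mark codons that, for their amino acid, were the most frequent in the 20 most abundant mRNAs, and lower case marks all other codons, including the start codon. The first 60 coding bases are shown 5′ to 3′ as they stand in RefSeq assembly R64. TDH3 (chrVII:883751-883810, minus strand) and FBA1 (chrXI:327428-327487, minus strand) had the highest levels, and COS4 (chrVI:6426-6485, plus strand) had the lowest.
TDH3: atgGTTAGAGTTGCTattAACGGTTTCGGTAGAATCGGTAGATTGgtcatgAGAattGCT
FBA1: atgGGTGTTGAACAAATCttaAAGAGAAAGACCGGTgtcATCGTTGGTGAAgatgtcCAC
COS4: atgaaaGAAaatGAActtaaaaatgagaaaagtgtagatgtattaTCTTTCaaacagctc
Of the 20 codons in each window, 15 were in capitals in TDH3, 15 in FBA1 and 4 in COS4. TDH3 and FBA1 are among the 20 mRNAs that set the capitals, so their counts are not independent of that choice. Over its whole reading frame, COS4 had 35.7% of its codons with synonyms in capitals, close to the median of 37.7% in all genes.

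The libraries held 32503478, 32823668, 32650155 and 36035490 counts in cultures 1 to 4. A count of 3 stood for 0.0806 to 0.0957 counts-per-million (CPM), computed on library totals scaled by TMM, edgeR's factor for differences in composition. This floor covers counting error only. Rows were the transcripts of the table, and the 12670 rows overlapped: 349 noncoding rows with a mean of at least 100 counts had counts within 1% (plus 2 counts) of an ORF-T or sn/snoRNA row in every library. The row AS_Unit51, for example, had 300462, 315859, 285018 and 353437 counts, against 300465, 315858, 285018 and 353437 counts for the mRNA CDC19, so 1 RNA was counted under both names. Rows were matched on counts alone, without positions, so some may match by coincidence. AS_YDR396W, with 2113, 1826, 1916 and 2097 counts, matched MED1 (YPR070W), with 2134, 1819, 1931 and 2100. The names of these rows place them on different chromosomes. Because of the overlap, shares of counts by class are given over all rows and again without the matching noncoding rows.

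mRNA made up most of the counted RNA. The 5836 ORF-T rows held 79.5%, 81.4%, 78.1% and 79.3% of all counts in cultures 1 to 4 (79.6% ± 1.39, SD, n = 4). The 3055 AST rows held 11.5% ± 0.439, and the 1442 NUT rows held 4.01% ± 0.487. The 158 sn/snoRNA rows held 3.65% ± 0.545 of the counts. The remaining classes were small, with 0.685% ± 0.0290 in 376 MAN rows, 0.383% ± 0.0169 in 719 SUT rows, 0.122% ± 0.0103 in 844 CUT rows and 0.0441% ± 0.00294 in 240 SRT rows (SD, n = 4 for each). Without the 349 rows that matched another row in counts, ORF-Ts held 86.0% ± 1.08, ASTs 7.64% ± 0.490 and NUTs 1.27% ± 0.0884. The share of NUTs was thus made up mostly of rows that match the counts of another transcript. Rows that hold only a part of the counts of an mRNA stayed in. AS_YAL037C-B, for example, had 0.641 to 0.670 of the counts of CDC19. Of the 3055 AST rows, 1732 are named for numbered units and not for an ORF. The 7.64% is therefore not a measure of antisense RNA alone.

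A typical ORF-T was far above a typical noncoding transcript. The median row had 45.6 CPM among ORF-Ts, 8.70 CPM among sn/snoRNAs, 4.38 CPM among MAN rows and 3.01 CPM among SUTs. AST and NUT medians were 1.70 and 1.58 CPM, and SRT and CUT medians were 1.02 and 0.651 CPM. CUTs were the class in which low rows were most frequent: 564 of 844 CUTs (66.8%) had a mean below 1 CPM, against 137 of 5836 ORF-Ts (2.35%) and 6 of 158 sn/snoRNAs (3.80%). Among SUTs, which share the lack of a coding sequence with CUTs, 76 of 719 (10.6%) were below 1 CPM. These are levels per row and not per length, since lengths of noncoding rows were not used here. Because extended regions were not set apart, the sn/snoRNA median need not be the level of a mature RNA.

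**Figure D1:**
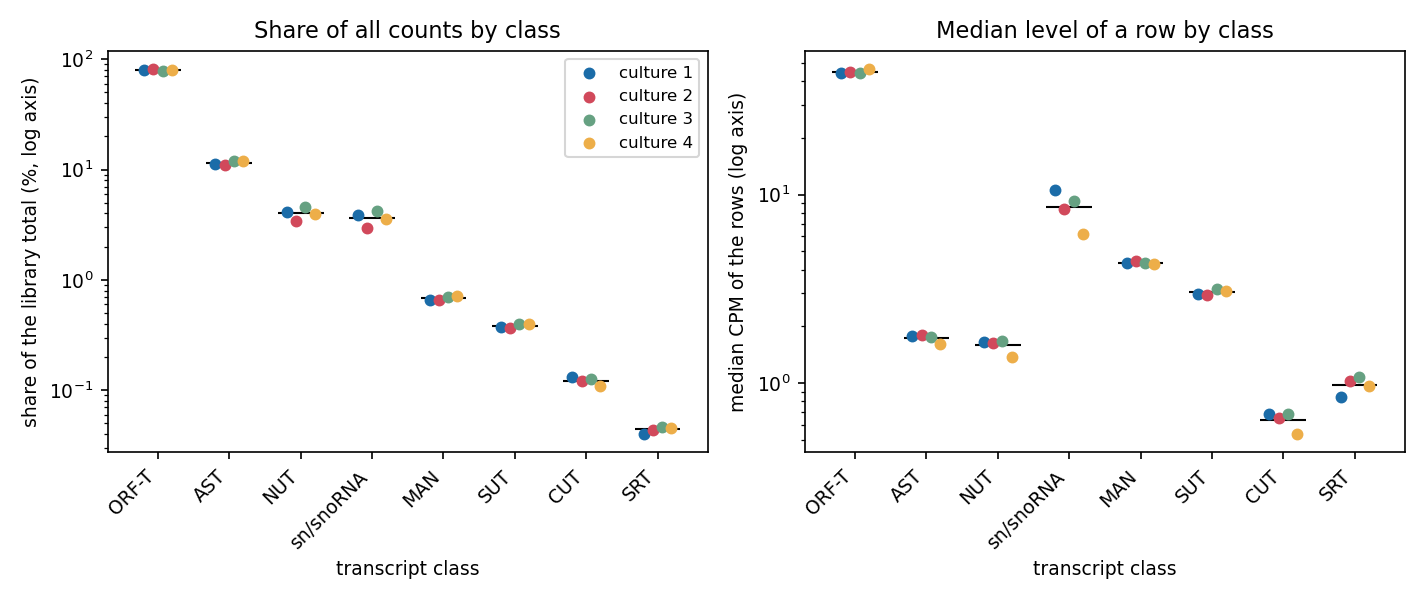
Share of all counts (left, %, log axis) and median level of a row (right, CPM, log axis) for 8 transcript classes, with 1 point per WT culture and a line at the mean of 4 cultures. ORF-T points lie at 78.1% to 81.4% of counts, while the median CUT row lies below 1 CPM in every culture.

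The 4 strongest rows of each noncoding class showed how unequal these classes were. The row with the most counts of the whole table was AS_Unit643, with 497190, 414659, 665688 and 738956 counts (17130 ± 3417 CPM, SD, n = 4). No ORF-T or sn/snoRNA row had matching counts, and no position is given for it in the sources used here, so the RNA behind it was not identified. The next ASTs were AS_Unit51, whose counts are those of CDC19, then AS_YAL037C-B (6168 ± 303 CPM) and AS_YKL153W (4704 ± 406 CPM). All 4 top NUTs (NUT0490, NUT1169, NUT1320 and NUT1342) had the counts of the small RNA genes SNR30, SNR37, SNR86 and SNR19. Of these, SNR30 is needed for the processing of 18S ribosomal RNA and SNR19 encodes the U1 splicing RNA. SNR30 itself had 7519 ± 1052 CPM, SNR37 had 5445 ± 1699 CPM, SNR86 had 4921 ± 1021 CPM and SNR17A, which encodes the U3 RNA, had 4585 ± 573 CPM. The 2 highest MAN rows, MAN_Unit87 (1232 ± 112 CPM) and MAN_Unit120 (458 ± 14.8 CPM), had the counts of the mRNAs YDR524C-B and PMR1, and MAN_Unit210 and MAN_Unit91 followed with 415 ± 22.9 and 357 ± 96.0 CPM. The strongest transcripts of the remaining classes were much lower. SUT673 had 91.1 ± 15.2 CPM, followed by SUT350 and SUT670 at 44.4 and 44.3 CPM. The SUT row named SUT2, at 47.9 CPM, had exactly the counts of the mRNA YPR009W, whose gene is also named SUT2. CUT484 had 69.9 ± 6.58 CPM, followed by CUT061, CUT628 and CUT727 between 25.8 and 31.4 CPM. SRT495 had 33.5 ± 2.61 CPM, followed by SRT423, SRT320 and SRT172 between 13.1 and 22.9 CPM.

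To rank mRNAs by level, counts were divided by length. Coding lengths came from RefSeq for 5586 ORF-T rows, and counts per kilobase were scaled to the same sum per library, as transcripts-per-million (TPM) over these rows. The median gene had 40.9 TPM, and the central range from the lower to the upper quartile was 20.4 to 92.6 TPM. The highest mRNA, TDH3, was 411-fold above the median. The pool was concentrated: the 10 most abundant genes held 10.1% of the summed level, the top 20 held 15.6%, the top 100 held 40.9% and the top 500 held 71.6%. The share of the top 20 was 15.4% to 16% across cultures. Counts over untranslated ends, where the authors' row windows hold them, are divided by coding length alone, which raises the shortest genes most.

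Of the 20 most abundant mRNAs, 7 encode glycolytic or fermentation enzymes and 10 encode ribosomal proteins. TDH3, which encodes glyceraldehyde-3-phosphate dehydrogenase (chrVII:882812-883810), had 472965, 535502, 472816 and 530567 counts, or 16822 ± 1023 TPM (SD, n = 4). FBA1, which encodes fructose-bisphosphate aldolase, had 421130, 467453, 447670 and 478789 counts, or 14036 ± 563 TPM. The counts of TDH3 were above those of FBA1 in each culture. Further down the pathway, GPM1 (phosphoglycerate mutase) had 9383 ± 1143 TPM, ENO2 (enolase) 8851 ± 690 TPM and CDC19 (pyruvate kinase) 6966 ± 466 TPM. PDC1 and ADH1, whose enzymes turn pyruvate into ethanol, had 6184 ± 948 and 9027 ± 580 TPM. GPM1, ADH1 and ENO2 differed by less than the spread of each between cultures, so their order is not settled.

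Among the ribosomal protein genes, RPS31, which encodes a fusion of ubiquitin and a small-subunit protein, had 170993, 140388, 150309 and 139818 counts, or 10971 ± 1307 TPM. RPL41A, which encodes the smallest ribosomal protein, had 24426, 21060, 25952 and 22144 counts and 10037 ± 1090 TPM. Its high level per length rested on a coding sequence of only 78 bases, and it was not among the 10 rows with the most counts. RPS20 (6902 ± 494 TPM), RPL41B (6053 ± 1176), RPS30A (5633 ± 549), RPL38 (5444 ± 554), RPS26A (5336 ± 569), RPL39 (5063 ± 984) and RPL32 (5004 ± 452) followed. From RPS30A down to RPL32, neighbours in this order differed by less than their spread between cultures. The 3 other genes of the top 20 were CCW12, which encodes a cell wall mannoprotein (8004 ± 787 TPM), YDR524C-B, which encodes an uncharacterised protein (6862 ± 705 TPM), and PMP1, which encodes a small regulator of the plasma membrane proton pump (4934 ± 154 TPM).

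**Figure D2:**
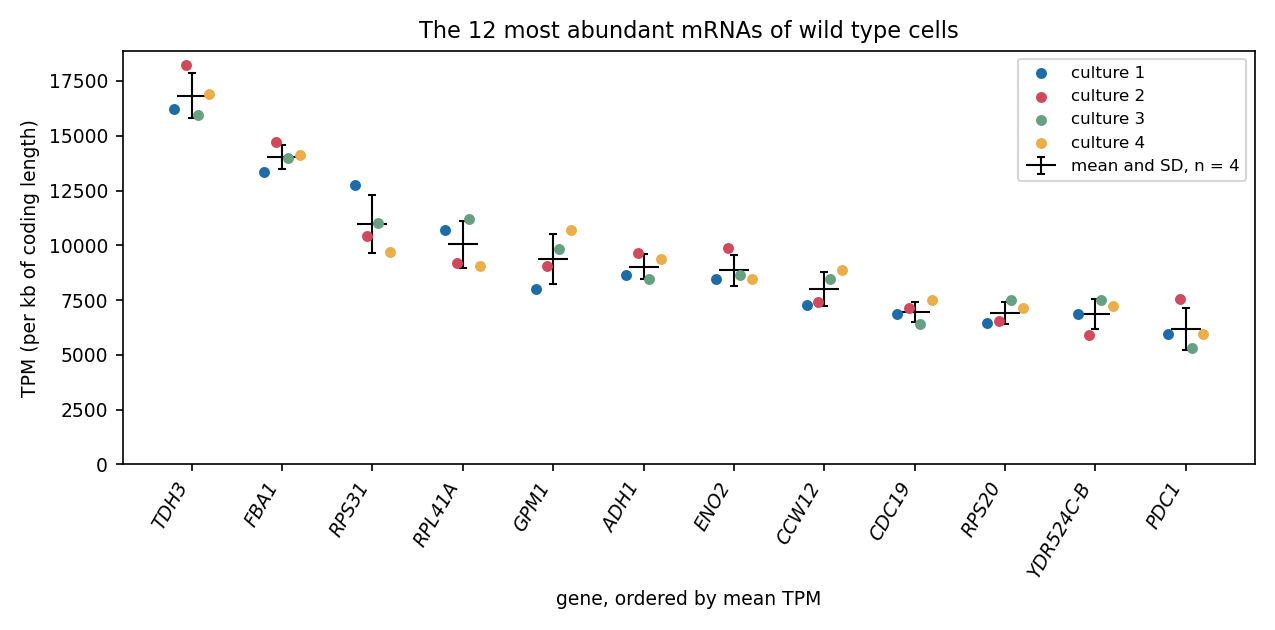
Level of the 12 most abundant mRNAs in 4 WT cultures, in TPM per kilobase of coding length. Points are cultures, and bars give the mean and SD (n = 4). TDH3 and FBA1, with means of 16822 and 14036 TPM, stand above the other 10 genes.

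Counts of genes with near-identical copies may have been split or lost. Of the top 20, 7 have another yeast protein of at least 95% identity, among them TDH3 with TDH2 (96.4%) and ENO2 with ENO1 (95.2%). The clearest case is RPL41A and RPL41B, whose proteins are identical and whose coding sequences differ at 1 base. The sequences are given to show how little there is to tell their reads apart, with the differing base in capitals. RPL41A lies at chrIV:130407-130484 and RPL41B at chrIV:221724-221801, both on the minus strand.
RPL41A: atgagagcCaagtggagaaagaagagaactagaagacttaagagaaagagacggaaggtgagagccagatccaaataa
RPL41B: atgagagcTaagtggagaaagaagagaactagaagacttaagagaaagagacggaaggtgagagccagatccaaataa
Their counts, 24426, 21060, 25952 and 22144 for RPL41A and 14808, 10596, 17102 and 13981 for RPL41B, are therefore uncertain as a division between the copies, although those of RPL41A were higher in all 4 cultures.

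By counts with no correction for length, the order changed for long genes. The 10 ORF-T rows with the most counts were TDH3, FBA1, ENO2, CDC19, PDC1, YEF3, ADH1, GPM1, PGK1 and RPL3. YEF3, which encodes translation elongation factor 3, had 370775, 333320, 254490 and 288897 counts, but only 3333 ± 608 TPM. PGK1 (phosphoglycerate kinase) had 4567 ± 376 TPM and RPL3, another large-subunit protein gene, had 4621 ± 188 TPM.

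Whole pathways followed the same division. All 136 ribosomal protein genes with a row were among the 559 most abundant mRNAs (the highest 10%, called the top group), from RPL22B at 264 TPM to RPS31 at 10971 TPM, with a median of 2306 TPM against 40.9 TPM for all genes. Together they held 35.4% ± 2.55 of the summed level (SD, n = 4). The 21 genes of glycolysis and fermentation held 9.10% ± 0.562, and 18 of them were in the top group. The exceptions were isozymes, namely PYK2 (55.2 TPM), PDC5 (11.4 TPM) and PDC6 (1.22 TPM). The 11 translation elongation factor genes held 1.71% ± 0.195, led by YEF3, TEF2 (2775 ± 148 TPM) and EFB1 (2772 ± 403 TPM). The 11 histone and histone variant genes held 1.25% ± 0.0567, led by HHT2, which encodes histone H3, at 2385 ± 424 TPM. Of 20 heat shock and chaperone genes, 11 were in the top group, led by SSA2 and HSC82 at 1782 ± 179 and 1779 ± 116 TPM.

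Genes that glucose is known to repress were spread widely. Of the 31 genes for the respiratory chain and gluconeogenesis that had a row, 2 were in the top group, and the list held 0.334% ± 0.0411 of the summed level. Its median was 87.4 TPM, above the 40.9 TPM of all genes. Among its lowest members, FBP1, which encodes the gluconeogenic fructose-1,6-bisphosphatase, had 12, 24, 32 and 38 counts (0.839 ± 0.336 TPM), and PCK1 (phosphoenolpyruvate carboxykinase) had 4.26 ± 1.35 TPM. The structural genes for galactose use were also low, with GAL7 at 3.02 ± 0.706 TPM, GAL1 at 1.74 ± 0.542 TPM, GAL10 at 1.31 ± 0.114 TPM and the permease gene GAL2 at 0.670 ± 0.336 TPM. GAL80, which encodes the repressor of this pathway, had 70.3 ± 3.28 TPM. The hexose transporter genes are not all repressed by glucose, and HXT1 and HXT3 were listed here as markers of growth on glucose. These markers differed widely: HXT3 had 933 ± 305 TPM, but HXT1 had 52.4 ± 16.9 TPM, near the 40.9 TPM of all genes. HXT2 had 722 ± 139 TPM and HXT9 had 0.562 ± 0.109 TPM. The 29 meiosis and sporulation genes with a row had a median of 2.45 TPM, and REC107, the highest, had 21.7 ± 1.78 TPM.

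Mating type genes had the levels of a cells, and the disrupted markers were not all at 0. MFA2 and MFA1, which encode the mating pheromone of a cells, had 4270 ± 454 and 935 ± 77.3 TPM, and STE2, the receptor gene of a cells, had 490 ± 82.6 TPM. Genes of the opposite mating type were low: MF(ALPHA)1 had 4.57 ± 0.690 TPM, STE3 had 3.09 ± 0.712 TPM and SAG1 had 13.1 ± 1.11 TPM. MET17, deleted in BY4741, had 21, 31, 32 and 79 counts (1.00 ± 0.599 TPM). URA3, whose reading frame BY4741 is also known to lack, had 486, 473, 514 and 485 counts (20.4 ± 0.992 TPM), and where on the row these counts fell was not tested. HIS3, deleted in part, had 944, 1185, 1072 and 1310 counts, and LEU2 was not analysed here.

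No ORF-T row was without counts, although levels below 3 counts per library cannot be told from 0. The lowest rows are therefore not shown to be expressed. None of the 5836 rows was at 0 in all 4 libraries, and 4 rows were at 0 in at least 1 library. The lowest row was YLR364C-A, with 1, 1, 0 and 1 counts. YDR199W had 3, 1, 1 and 1 counts and YER137W-A had 1, 4, 1 and 2 counts. YOR225W, YAR070C and YML094C-A were each at 0 in a single library and had at most 8 counts in the others. None of these 6 names matches a gene in RefSeq. Of the 6002 nuclear protein-coding genes of RefSeq, 419 had no ORF-T row and were not analysed here, and 12 listed PAU genes and 6 listed hexose transporter genes had no row, so the statement covers only the rows at hand.

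ORF-T rows without a RefSeq gene were lower than the others. The 250 such rows had a median of 2.00 CPM, and 72 of them (28.8%) had a mean below 1 CPM. The 5586 rows with a RefSeq gene had a median of 47.5 CPM, and 65 (1.16%) were below 1 CPM. Per length, 40 RefSeq genes had a level below 1 TPM. The lowest was COS4, a member of a subtelomeric family (chrVI:6426-7565), with 10, 5, 8 and 8 counts and 0.227 ± 0.0620 TPM. AZR1, which encodes a transporter of the plasma membrane, had 17, 27, 28 and 23 counts and 0.431 ± 0.0922 TPM. The next were YGR067C, YGL118C, VTH1, YHR214C-E, HXT9, VTH2, YRF1-2 and FCY22, between 0.436 and 0.617 TPM. All 4 libraries held counts of each of these 10 genes. VTH1, VTH2, HXT9 and YRF1-2 have near-identical copies in the genome, so their counts may be split or lost.

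Ranked per length, abundant mRNAs were short and used few codons. Dividing by coding length raises short genes where untranslated ends are counted, so their shortness depends in part on the measure. The 10 rows with the most counts, with no correction for length, had coding lengths of 744 to 3135 bases. The median coding length was 398 bases in the 20 most abundant genes and 654 bases in the top group, against 1221 bases in all 5583 protein-coding genes. The effective number of codons, which runs from 20 where each amino acid uses 1 codon to 61 where all codons are used equally, had a median of 26.1 in the top 20 (13 genes of at least 300 bases) and 37.5 in the top group, against 51.6 in all genes. In the lowest 559 genes the median was 52.8, close to that of all genes. Across 5350 genes within these libraries, Spearman's rho between the effective number of codons and TPM was -0.42, given as a description, since genes are not independent replicates. The 18 codons shown in capitals in the openings of TDH3, FBA1 and COS4 made up a median of 75.3% of the codons that have synonyms in the genes of rank 21 to 120, which were not used to choose them, against 37.7% in all genes and 35.8% in the lowest 559. In TDH3 itself the share was 80.4%, and in COS4 it was 35.7%. Introns within the coding sequence were also more frequent in the top group: 112 of its 559 genes had one, against 257 of all 5583 genes. This was uneven, with 2 of the top 20 genes and 55 of the 100 genes of rank 21 to 120. All 136 ribosomal protein genes with a row are in the top group, and their part in the excess was not tested.

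Sense and antisense RNA were compared within each library for 1087 ORFs that had both rows. Per the paper, antisense rows reverse the coding region and leave out the untranslated ends. Whether sense rows hold those ends was not tested, so the windows of a pair may differ in length. These are 18.6% of the ORF-T rows, and they are a selected set, since the authors had kept antisense annotations that changed on loss of RRP6. The test asked, across 4 cultures, whether the antisense row differed from the sense row, with culture as a paired factor (edgeR quasi-likelihood, Benjamini-Hochberg adjusted p of at most 0.05 and a fold of at least 1.5). The antisense row was higher in 111 pairs (10.2%) and the sense row in 944 pairs (86.8%), and 32 pairs were not called. The median pair had 2.12% of its counts on the antisense strand.

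The direction divided sharply by whether the ORF was a gene in RefSeq. Among 90 pairs whose ORF has no RefSeq gene, antisense was higher in 74 and the median antisense share was 93.8%. Among 997 pairs with a RefSeq gene, antisense was higher in 37 (3.71%, against 10.2% over all pairs) and the median antisense share was 1.87%. Names such as YKL153W belong to short frames that lie across from an annotated gene. Where the name of such an ORF placed it beside a gene of the opposite strand, antisense counts were set against those of that gene. AS_YAL037C-B had 199629, 202577, 190957 and 234452 counts, between 0.641 and 0.670 of the counts of CDC19 in every library, while its sense row had 39, 101, 41 and 30 counts. AS_YKL153W had 129502, 153090, 161813 and 189341 counts, between 0.745 and 0.774 of those of GPM1, while its sense row had 36, 112, 40 and 35 counts. The antisense and sense counts did not overlap in either pair.

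The log2 ratio of antisense over sense was 12.08 for YAL037C-B (adjusted p = 8.2e-10, edgeR) and 11.63 for YKL153W (adjusted p = 7.9e-10, edgeR), the highest of all pairs. The 10 pairs next in order, all without a RefSeq gene, were YPL250W-A, YOR331C, YGL123C-A, YER067C-A, YJL188C, YNL174W, YEL034C-A, YHL034W-A, YDR327W and YOR225W, with log2 ratios from 10.40 downward. Some repeated a single mRNA almost fully. AS_YEL034C-A had 0.998 to 0.999 of the counts of HYP2, which encodes translation factor eIF5A, and AS_YJL188C had 0.991 to 0.995 of those of RPL39. AS_YER067C-A varied with its neighbour RGI1, at 1356, 6761, 10591 and 13739 counts, or 0.77 to 0.83 of the counts of RGI1, and both were several times lower in culture 1 than in the other cultures.

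In genes of RefSeq, antisense excess was met where the mRNA was scarce. The sense level is part of the ratio that made the call, so this follows in part from the definition. The median sense level of the 37 genes was 1.16 CPM, and 33 of them were below 5 CPM on the sense strand. Of the 37, 8 are overlapped by another annotated gene on the opposite strand, as YGR018C is by YGR017W over 316 bases and YJR079W is by AIM24 over 808 bases. YGR018C had 1918, 1937, 2266 and 2795 antisense counts, against 19, 36, 51 and 34 sense counts (log2 ratio 6.02). YJR079W had 1474, 1518, 1845 and 2130 antisense counts, against 21, 50, 31 and 43 sense counts (log2 ratio 5.61). For these genes the antisense row and the neighbouring gene cannot be told apart. Among all 978 genes with no overlapping gene on the opposite strand, antisense was higher in 29 and sense in 926.

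Of these 29 genes, 6 are described, chosen after their values were seen. FCY22 (chrV:276572-278164), which encodes a purine-cytosine permease homologue, had 330, 493, 380 and 572 antisense counts, against 33, 22, 27 and 36 sense counts (log2 ratio 3.89, adjusted p = 1.9e-09, edgeR). SMA2 (chrXIII:140424-141533), which is needed for the spore membrane, had 283, 293, 308 and 336 antisense counts, against 38, 29, 33 and 41 sense counts (log2 ratio 3.11). Antisense and sense counts of both genes stood apart in all 4 cultures. DIT2, which is needed for the spore wall, had 96, 108, 93 and 91 antisense counts, against 30, 34, 44 and 33 sense counts (log2 ratio 1.46). REC102, a gene of meiotic recombination, had 146, 163, 215 and 163 antisense counts, against 52, 36, 55 and 35 sense counts (log2 ratio 1.95). MEP1, which encodes an ammonium permease, had 592, 577, 463 and 591 antisense counts, against 104, 164, 144 and 143 sense counts (log2 ratio 2.01). PLN1, which encodes a lipid droplet protein, was the strongest of the 29 on the antisense strand: it had 1534, 1209, 1290 and 1467 antisense counts, against 419, 710, 747 and 982 sense counts (log2 ratio 0.99). The antisense counts of these 6 genes were higher than the sense counts in every culture.

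**Figure D3:**
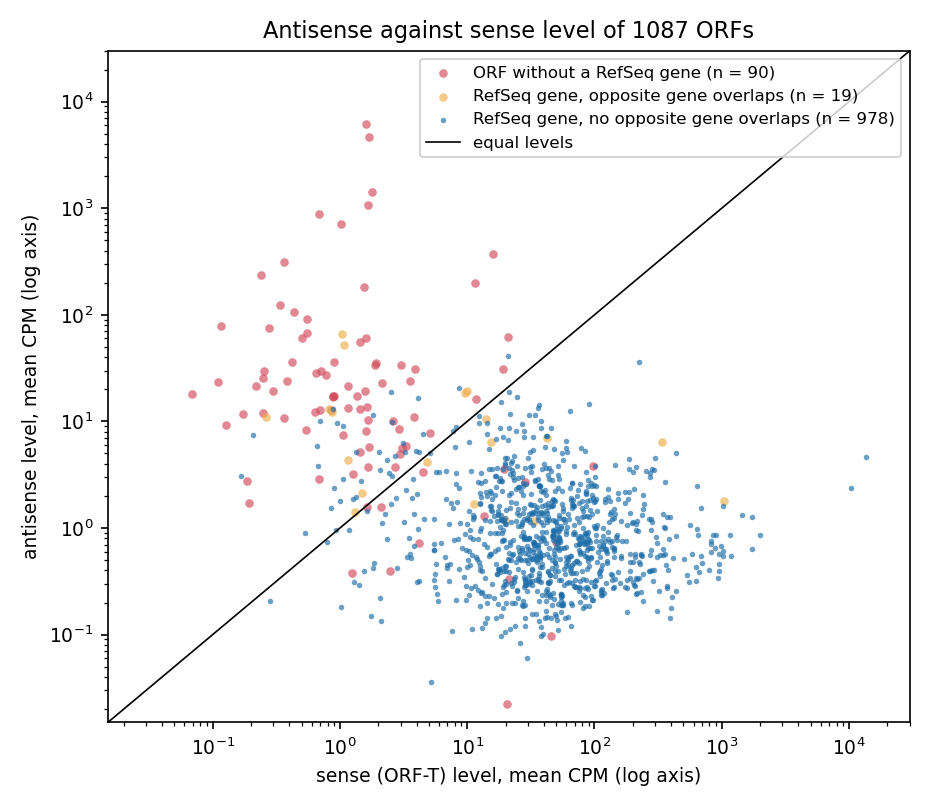
Mean antisense level against mean sense level (both in CPM, log axes) of 1087 ORFs in WT cells, with 1 point per ORF and a line at equal levels. Most of the 90 ORFs without a RefSeq gene lie above the line, with antisense higher in 74, while antisense was higher in 37 of the 997 RefSeq genes.

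Median antisense level fell as sense level rose, but changed far less than sense level. When the 997 genes were ordered by sense level and divided into 5 equal groups from low to high, the median sense level was 7.50, 22.8, 41.1, 75.7 and 215 CPM, and the median antisense level was 1.22, 0.842, 0.809, 0.731 and 0.640 CPM. The median antisense share therefore was 3.81% in the group next to the lowest, 1.92% in the middle one and 0.254% in the highest. Of the 37 genes with higher antisense, 36 fell in the lowest group and the other in the next, as a ratio over sense level favours. Spearman's rho between sense and antisense level was -0.16 across these genes, a description over rows that share libraries.

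Antisense share also varied with the orientation of the downstream neighbour. Among genes with no overlapping opposite gene, the median antisense share was 2.93% in 263 genes with a convergent neighbour less than 500 bases beyond the stop codon, 6.07% in 22 genes with a convergent neighbour farther away, and 1.49% in 693 genes with a tandem neighbour. Antisense was higher than sense in 11 (4.18%), 2 (9.09%) and 16 (2.31%) of these genes. Convergent genes transcribe towards each other, and the part that long 3′ ends of the neighbour take in these counts was not tested.

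IMD2, NRD1 and URA8 are genes that the study followed, and PHO84 is one that it names from earlier work. Of these genes, only PHO84 had an antisense row among the pairs. YKL151C, whose sense and antisense RNA the study measured by northern blot and RNA-Seq, was not among the genes chosen here. PHO84, which encodes the high-affinity phosphate transporter and has an annotated antisense RNA (YNCM0001W), had 50, 64, 69 and 55 antisense counts, against 38822, 30643, 29599 and 41278 sense counts (log2 ratio -9.19). Its antisense level was 1.78 CPM at a sense level of 1046 CPM. Over all RefSeq pairs the medians were 0.794 CPM antisense and 41.0 CPM sense, so the antisense levels are not compared at like sense levels. The part of imperfect strand marking in the PHO84 value was not tested. IMD2, for IMP dehydrogenase, NRD1, for an RNA-binding termination factor, and URA8, for CTP synthase, had no such row. Their sense levels were 95.5 ± 13.0, 39.0 ± 6.69 and 47.1 ± 6.65 TPM.

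The lowest antisense shares were those of abundant mRNAs, and here culture 2 stood apart. ENO2 had 38, 166, 66 and 45 antisense counts in cultures 1 to 4, against 324090, 381668, 336586 and 348882 sense counts. FBA1 had 74, 351, 107 and 76 antisense counts, against 421130, 467453, 447670 and 478789 sense counts. The counts on the antisense strand were highest in culture 2 in both genes. In the 50 genes of highest sense level with no opposite overlapping gene, the summed antisense counts came to 584, 1110.5, 680 and 539 parts-per-million of the summed sense counts, and culture 2 was the highest in 40 of 50 (80.0%), against 316 of all 978 such genes (32.3%). The sense rows of YAL037C-B and YKL153W, which lie across from strong antisense rows, were likewise highest in culture 2. These values bear on any antisense level below about a thousandth of the sense level, and the part of imperfect strand marking in them was not tested.

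Cultures of the same strain were similar but not interchangeable. Between pairs of cultures, Pearson's r of log2 CPM over 5623 ORF-T rows with a mean of at least 50 counts was 0.971 to 0.993, given as a description. The lowest values were those with culture 1 (0.980, 0.975 and 0.971), and the 3 pairs without it had 0.992, 0.987 and 0.993. Between cultures 1 and 4, 250 rows differed at least 2-fold, against 15 rows between cultures 2 and 3. The median coefficient of variation (CV, SD over mean of CPM in 4 cultures) was 11.7% for ORF-Ts, while Poisson counting alone would give a median of 2.5%. Without culture 1 it was 8.38%.

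The median CV of noncoding rows was higher at low counts. It was 15.2% over all of them at a mean of at least 50 counts, but 11.5% at a mean of at least 1000 counts, where ORF-Ts had 11%. By class, the median CV was 25.8% in sn/snoRNAs, 19.4% in CUTs, 18.7% in SRTs, 16.4% in NUTs, 14.9% in MAN rows and 13.6% in ASTs, for rows with a mean of at least 50 counts. SUTs lay between NUTs and MAN rows. The median Poisson value was 8.59% for NUTs and 5.62% for sn/snoRNAs. The sn/snoRNA rows, not divided into mature RNAs and extended regions, moved together: 97 of 148 were highest in culture 1 and 116 were lowest in culture 4. CUTs did so too, with 91 of 186 highest in culture 1 and 111 lowest in culture 4. Among ORF-Ts culture 1 was highest in 32.3% and culture 4 was lowest in 17.3%.

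The 100 ORF-T rows with the largest CV fell mainly into those low in culture 1 and those high in culture 4. Measured from the median of the 4 cultures, culture 1 was the most distant and low in 50 rows, culture 4 was the most distant and high in 29, culture 2 was high in 11 and culture 1 was high in 8. The rows were chosen by their spread, so these counts are a description.

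**Figure D4:**
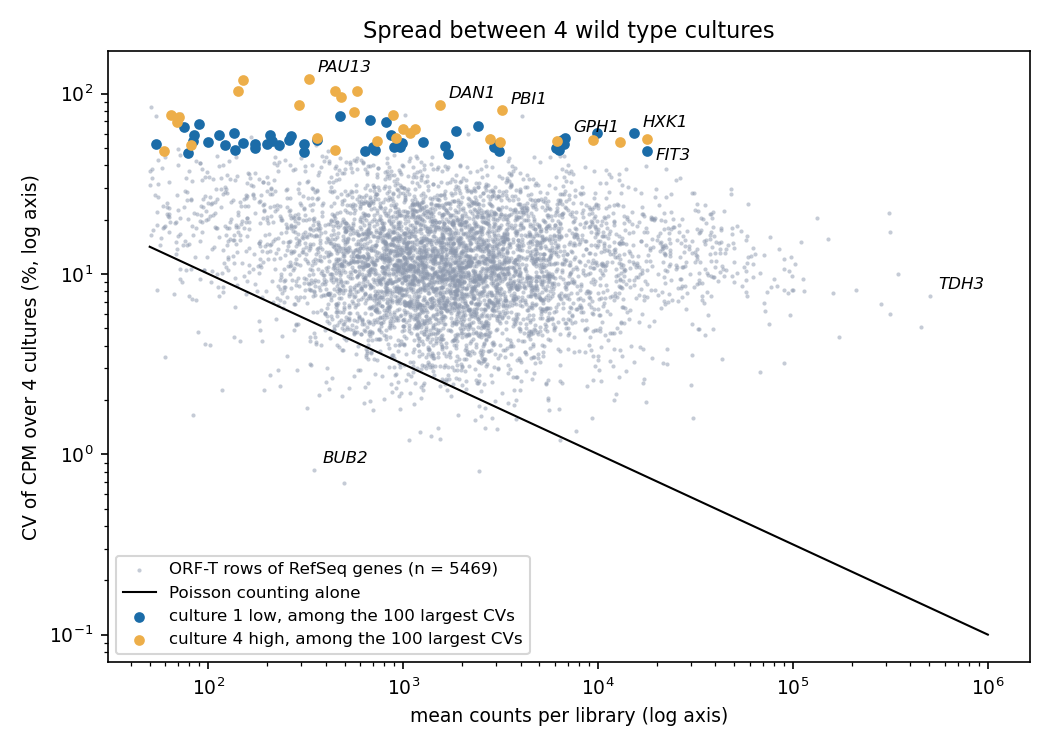
CV of CPM over 4 WT cultures (%) against mean counts per library, both on log axes, for 5469 ORF-T rows of RefSeq genes, with the line that Poisson counting alone gives. Blue and orange points are, among the 100 rows of largest CV, those low in culture 1 and those high in culture 4; PAU13 and DAN1 lie at 121% and 86.8%.

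Genes of reserve carbohydrates and of the response to stress and falling glucose were low in culture 1. HXK1, a hexokinase gene that glucose represses, had 69.5, 441, 571 and 686 CPM in cultures 1 to 4. GPH1 and GLC3, whose products break down and branch glycogen, had 33.7, 230, 244 and 283 CPM and 46.7, 196, 219 and 294 CPM. In all 3, culture 1 lay far below the range of the other cultures. GSY1 (glycogen synthase), PGM2 (phosphoglucomutase) and TSL1 (a subunit of the trehalose synthase complex) had 55.2, 45.9 and 53.4 CPM in culture 1 and between 196 and 281 CPM in the others. The high-affinity hexose transporter gene HXT7 had 7.02, 29.0, 39.2 and 39.3 CPM, and the related HXT6 had 2.58, 16.2, 23.0 and 35.9 CPM. How reads were divided between HXT6 and HXT7 was not tested. TMA10, a small stress-induced gene, had 8.49, 63.0, 92.0 and 116 CPM. Over the 50 rows the median log2 difference of culture 1 from the mean of the other 3 was -2.13. Of the 31 respiratory and gluconeogenic genes, 27 were lowest in culture 1, and of the 20 heat shock and chaperone genes, 13 were, against 37.7% of all 5623 ORF-T rows.

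The stress response element AGGGG, bound by the factors Msn2 and Msn4, occurred on either strand within 500 bases upstream of the start codon in 38 of 49 of these genes that have a RefSeq match (77.6%), against 34.5% of 5583 genes. The windows are shown for 3 of them because they had among the largest differences, with the motif in capitals and the strand of the gene given 5′ to 3′. They lie at chrXVI:860960-861004, plus strand, for GPH1, at chrXII:783701-783745, minus strand, for TMA10 and at chrVI:255362-255406, minus strand, for HXK1.
GPH1: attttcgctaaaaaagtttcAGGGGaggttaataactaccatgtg
TMA10: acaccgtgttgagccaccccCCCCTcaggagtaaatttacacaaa
HXK1: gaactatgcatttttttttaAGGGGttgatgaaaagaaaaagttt
The motif begins 326, 338 and 337 bases upstream of the start codon, and a match of letters does not show that a factor was bound.

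Genes known to respond to low oxygen were high in culture 4. PAU13, of the seripauperin family of cell wall proteins, had 102, 110, 140 and 960 counts in cultures 1 to 4, and its CV of 121% was the largest of all ORF-T rows. PAU15, PAU3, PAU9, PAU24 and PAU5 had CVs of 118%, 104%, 103%, 103% and 95.5%, each with culture 4 above the range of the other cultures. DAN1, a cell wall mannoprotein gene of anaerobic cells, had 29.0, 20.9, 24.9 and 101 CPM. All 12 PAU genes and all 8 anaerobic cell wall genes with a row were highest in culture 4 (PAU23 and PAU24 are on both lists), against 32.1% of all 5623 ORF-T rows. PAU13, PAU15, PAU3, PAU9 and PAU24 have near-identical copies, so the division of counts within this family is uncertain. The PAU genes together made 0.0178%, 0.0172%, 0.0229% and 0.0832% of the summed level. AUS1, which encodes a sterol importer, and HES1, for an oxysterol-binding protein, had 324 and 64.2 CPM in culture 4, against 117 to 154 CPM and at most 24.7 CPM in the others. LSO1 (CV 86.2%), PBI1 (80.6%) and SET4 (78.9%), the last for a SET-domain protein, were also highest in culture 4. Whether they respond to oxygen was not examined here.

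Iron uptake genes were also high in culture 4. Of 16 iron regulon genes, 12 were highest in culture 4, where 32.1% of all ORF-T rows were highest. FIT3, which encodes a cell wall mannoprotein that holds iron-loaded siderophores, had 368, 359, 386 and 947 CPM, and ARN2, which encodes a siderophore transporter, had 304, 232, 289 and 672 CPM. The list made 0.285%, 0.267%, 0.277% and 0.557% of the summed level. Ribosomal protein mRNAs moved the other way, with 127 of 136 lowest in culture 4, against 17.3% of all ORF-T rows, and a share of 37.9%, 35.8%, 36.1% and 31.9% of the level. Culture 4 also had the largest library total, and the part of that, or of growth phase, in these values was not tested.

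The letters TCGTATA, the core of the sterol response element bound by Upc2, occurred upstream in 13 of the 29 genes high in culture 4 (44.8%), against 6.97% of all 5583 genes. The letters TGCACCC, the core of the element bound by the iron-responsive factor Aft1, occurred in 6 of the 29 (20.7%), against 2.35% of all. Among all 16 iron regulon genes, 15 held TGCACCC. These genes were listed for their known link to iron, so this count describes the list and is not a test. Several of the 29 genes are PAU genes with near-identical copies, so their matches are not independent. A match of letters does not show that a factor was bound. Both strands of 500 upstream bases were searched. A pair of each is shown, with the motif in capitals: DAN1 at chrX:709884-709930, minus strand, PAU24 at chrII:808775-808821, plus strand, FIT3 at chrXV:1061213-1061259, minus strand, and FIT2, another gene of the FIT family, at chrXV:1059380-1059426, plus strand.
DAN1: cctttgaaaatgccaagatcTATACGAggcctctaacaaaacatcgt
PAU24: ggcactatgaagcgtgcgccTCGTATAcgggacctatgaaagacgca
FIT3: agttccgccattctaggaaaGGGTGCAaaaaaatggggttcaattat
FIT2: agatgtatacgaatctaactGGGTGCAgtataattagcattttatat

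**Figure D5:**
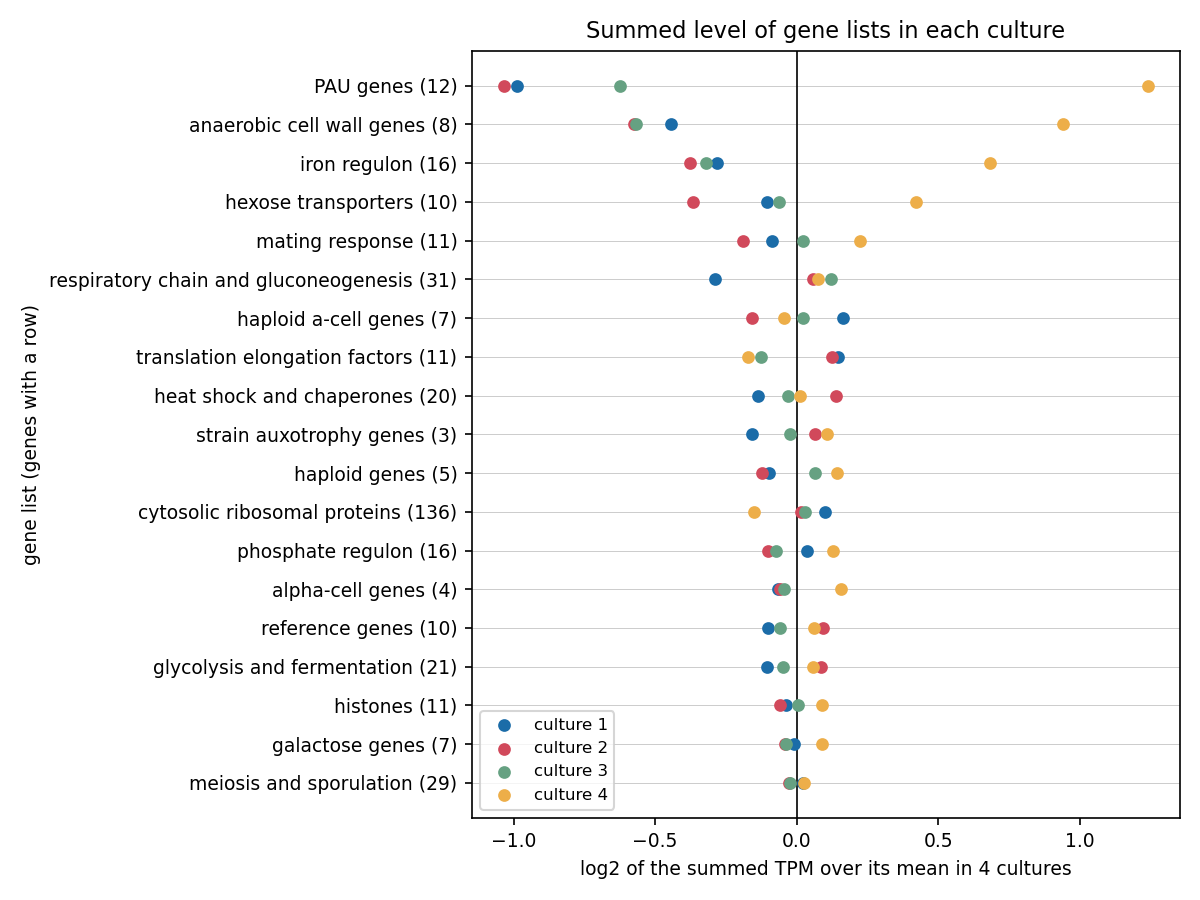
Summed TPM of 19 gene lists in each WT culture, as the log2 ratio to the mean of the 4 cultures, with 1 point per culture and the number of genes with a row in brackets. PAU, anaerobic cell wall and iron regulon genes lie highest in culture 4, and respiratory genes lie lowest in culture 1.

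Other single genes stood out in other cultures. BSC1 (chrIV:384601-385587) and PRM7 (chrIV:381985-384081), neighbours on chromosome IV, had 262, 112, 65.2 and 62.3 CPM and 66.6, 23.5, 16.2 and 18.6 CPM, and YDL038C, whose name places it beside them, had 364, 150.5, 84.3 and 88.8 CPM. All 3 were highest in culture 1. RRT5 (CV 84.0%) and YMR230W-A (CV 77.0%) were also highest there, with 108, 25, 49 and 21 counts for RRT5 and 148, 57, 37 and 46 for YMR230W-A. The chaperone genes BTN2 and SIS1 were highest in culture 2, with 30.8, 102, 95.1 and 31.6 CPM for BTN2.

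The steadiest ORF-Ts differed in level. MTG2, SYT1, BUB2, RBL2, ERG2 and CHK1 had the smallest CVs, from 0.690% to 1.22%, each below the value that Poisson counting alone would give, as were 153 of 5623 rows (2.72%). BUB2, a gene of the mitotic exit checkpoint, had 10.4, 10.4, 10.3 and 10.5 CPM, and ERG2, a gene of ergosterol synthesis, had 189, 191, 189 and 194 CPM. The 10 genes of a list of common reference genes had a median CV of 7.76%, and ACT1, which encodes actin, had 2099 ± 141 TPM. The ribosomal protein list had a median CV of 12.4%.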

How the data were processed

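Per the labels, the authors used STAR 2.5.2b, the sacCer3 genome and featureCounts (Subread 1.5.0). The deposited values are whole-number counts per transcript. The table's legend calls them normalized, but totals differ between libraries and all 121 whole numbers from 30 to 150 occur in each WT library, so they were treated as raw counts. Of 12 per-sample count columns, 8 were not used, nor were the authors' fold changes and FDR values.

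Rows were matched by systematic name to RefSeq R64 for names, coordinates and coding lengths. TMM factors, CPM, dispersion and the antisense against sense test came from edgeR 4.0.16 (R 4.3.3), with limma 3.58.1 and DESeq2 1.42.0 as alternatives. The fit held 4 antisense and 4 sense columns with culture as a block, since both strands come from the same library, and pairs needed 10 counts. It was tested on simulated data. Copies were found with BLAST+ 2.17.0, and tables and figures were made with Python 3.11.15. Library totals, 32503478 to 36035490 counts, set the precision. Cultures were grown on different days, so day and culture cannot be told apart.

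The rule for named genes took the 20 ORF-Ts highest per kilobase, the 10 with most counts, the lowest rows, 4 rows of each other class, 12 pairs by ratio and 6 by antisense level, the 12 largest and 6 smallest CVs (mean of at least 50 counts), up to 8 members of a list, and IMD2, NRD1, URA8 and PHO84. Not every one is printed, and 1 of the 20 ORF-Ts is not reported here. Antisense-rich RefSeq genes and further genes marking a culture were named after their values were seen. The members and lists were chosen with earlier results of these data known. RPP1, a subunit of RNase P, was left out of the ribosomal protein list.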

Additional observations from a re-analysis of the deposited data

Results flagged for a closer look

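Among 104 sets of 4 cultures, 19 had a culture far from the other 3, that is, with a gap to the nearest culture, as a part of the whole range, above Dixon's critical value. Chance flags about 1 in 20 such sets, and many of these genes were named for their spread. Culture 4 was the high one for the summed levels of PAU genes (gap over range 0.914), anaerobic cell wall genes (0.950), α-cell genes (0.905) and iron regulon genes (0.937). It was also the high one for the CPM of PAU13 (0.958), PAU15 (0.894), PAU3 (0.933), PAU9 (0.920), PAU24 (0.955), PAU5 (0.865), DAN1 (0.899), LSO1 (0.832), PBI1 (0.861) and SET4 (0.902). For the ribosomal protein genes, culture 4 was the low one for RPL32 (0.870) and culture 3 was the high one for RPS20 (0.903). Culture 1 was the high one for SUT670 (0.847) and for the row named SUT2 (0.907), whose counts are those of the mRNA YPR009W, and culture 3 was the low one for AS_YAL037C-B (0.871).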

How the results depend on the processing

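Without rows that match the counts of an ORF-T or sn/snoRNA row, an alternative chosen after seeing the data, ORF-Ts held 86.0% and ASTs 7.64% of counts. Without the 10 rows of most counts, ASTs held 9.96% and CUTs 0.137%. At a limit of 3 counts over 4 libraries, 1 ORF-T row was silent. Low ORF-T rows numbered 65 among RefSeq genes below 1 CPM and 40 below 1 TPM. The median CV of noncoding rows was 19.3% at a minimum mean of 10 counts and 11.5% at 1000. The top 20 genes held 18.5% of the level when near-identical copies were left out. Antisense was higher in 37 pairs when only RefSeq genes were kept, an alternative also chosen after seeing the data, and in 29 pairs, with a median antisense share of 1.81%, when RefSeq genes with an overlapping opposite gene were left out as well. Leaving out each culture in turn gave median CVs of 8.38% to 12.5% for ORF-Ts and 11.6% to 15.7% for noncoding rows, and a common biological coefficient of variation of 13.4% to 20.4%, against 18.1% with all 4. In each case the low end was without culture 1. Without the culture block, which pairs both strands of a library, antisense was higher in 110 pairs and sense in 944. In all, 89 alternative values stayed within range and 16 moved, and none changed direction. Levels below 3 counts per library cannot be told from 0 at this depth.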
